A study of Sus scrofa with 24 samples.

Results

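CXCR4 and S1PR1 are receptors that steer leukocytes between blood and tissue, and their RNA was followed here in blood mononuclear cells of pigs on 6 diets. The members are all probe sets that the platform's probe-to-gene table assigns to either symbol, 4 of 23999 probe sets without array controls. CXCR4 (NCBI Gene 396659) has 1 probe set, Ssc.7176.1.A1_at. S1PR1 (NCBI Gene 100621202) has 3, namely Ssc.23526.1.S1_at, Ssc.6068.1.A1_at and Ssc.23526.2.S1_at. The first of these has the highest mean over all arrays and stands for the gene unless another is named. All 4 probe sets passed the filter on dim probe sets, a mean log2 intensity of 3.57, with means of 11.40 for CXCR4 and 11.26, 11.11 and 10.50 for S1PR1. The genes were chosen by their log2 intensity in earlier results of these data, where they lay higher on the atherogenic diet than on chow in both sexes together and in males. That difference is therefore described here and carries no test.

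CXCR4 is a G protein-coupled receptor for the chemokine CXCL12. Stromal cells of the bone marrow and lymphoid organs make CXCL12, and the receptor keeps progenitors and many leukocytes in those tissues or draws them there. S1PR1 is a receptor for sphingosine 1-phosphate, a lipid that is plentiful in blood and lymph and scarce inside lymphoid tissue, and lymphocytes follow this gradient out of lymph nodes and thymus. Retention through CXCR4 and exit through S1PR1 thus pull in opposite directions in many settings. T cells, B cells and monocytes in blood can carry both receptors.

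Each of the 24 arrays held RNA of mononuclear cells from 1 pig, separated from heparinised blood on a density gradient. Every group had 2 females and 2 males, kept on their diet for 4 months. Pigs of the CT group ate standard commercial chow, and those of CT-GE-RES the same chow with a grape extract enriched in resveratrol, a stilbene of grape skin. AD was an atherogenic diet rich in saturated fat, with cholic acid at 1%, coconut oil at 10% and beef tallow at 5.5%. It was given alone (AD), with grape extract (AD-GE), with the enriched extract (AD-GE-RES) or with resveratrol without extract (AD-RES). Grape extract was given at 1 g and resveratrol at 18 mg per 70 kg of body weight. The age of the pigs at sampling was not given in the sources used here. Animals are called 1 and 2 for the females and 3 and 4 for the males of a group, as names with no order. In whole mononuclear cells, fewer cells of a type and less RNA per cell cannot be told apart.

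The labelled cell type was set against marker lists. Of 18 T cell genes 11 were measured and passed the filter, as did 9 of 13 monocyte genes, 4 of 12 NK and cytotoxic cell genes and 3 of 12 B cell genes (CD79B, BLNK and SPIB). MS4A1 and CD79A, further markers of B cells, were not analysed here. Genes of cells that a mononuclear preparation should hold little of were also above the filter. They were 8 of 12 for neutrophils, 9 of 15 for platelets and 5 of 11 for erythroid cells. The filter left out only the dimmest 25% of probe sets, and every measured gene of all these lists passed it. The counts therefore do not measure how much of a cell type was present. The 3'/5' ratio of the arrays' control transcripts, a log2 measure of RNA quality, had group means from 1.92 in AD-RES to 3.15 in CT. Its Pearson r was −0.31 with CXCR4 and −0.36 with S1PR1 over the 24 arrays, with adjusted permutation p-values of 0.224 and 0.20.

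CXCR4 had its lowest group means on chow and its highest single values in the males of AD and AD-GE. In CT the 4 animals stood at 10.74, 11.05, 11.06 and 10.79 on the log2 intensity scale. In CT-GE-RES they stood at 10.72, 10.44, 11.15 and 11.41. Both chow groups thus had a mean near the same level, 10.91 ± 0.17 (SD, n = 4) and 10.93 ± 0.44, with the wider spread where the extract was added. In AD the females had 11.10 and 11.24 and the males 12.46 and 12.48. AD-GE had 11.31 and 11.35 in females and 12.08 and 12.25 in males. These males are the 4 highest of all 24 animals, and the females of the same groups lay well below them. AD-GE-RES had 11.93 and 10.93 in females and 11.90 and 12.05 in males, so that 1 female stood with the males. AD-RES had 10.99, 11.17, 11.62 and 11.38, a range that overlapped both chow groups.

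The order of the CXCR4 group means ran from AD (11.82 ± 0.75, SD, n = 4) through AD-GE (11.75 ± 0.49) and AD-GE-RES (11.70 ± 0.52) to AD-RES (11.29 ± 0.27), CT-GE-RES and CT. The highest and lowest group means were 0.91 apart, a 1.88-fold difference. No 2 neighbours in this order lay farther apart than the larger of their SDs. The gap was largest between AD-GE-RES and AD-RES, at 0.41.

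S1PR1 followed nearly the same order with less distance between groups. CT animals stood at 10.92, 10.99, 10.85 and 10.53, and CT-GE-RES animals at 11.05, 10.96, 11.20 and 11.24. AD had 11.16 and 11.23 in females and 11.67 and 11.99 in males. AD-GE had 11.32, 11.39, 11.61 and 11.68, which is the tightest of the high groups. AD-GE-RES had 11.39, 11.17, 11.69 and 11.41. AD-RES had 11.10, 11.38, 11.09 and 11.10, so that 3 of its 4 animals lay in the range of CT-GE-RES.

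The S1PR1 group means were 11.51 ± 0.39 (SD, n = 4) for AD, 11.50 ± 0.17 for AD-GE and 11.42 ± 0.21 for AD-GE-RES. They were 11.17 ± 0.14 in AD-RES, 11.11 ± 0.13 in CT-GE-RES and 10.82 ± 0.20 in CT. Steps larger than both neighbouring SDs lay between AD-GE-RES and AD-RES (0.25) and between CT-GE-RES and CT (0.29). The first 3 groups in the order, and AD-RES beside CT-GE-RES, differed by less than their SDs.

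The other S1PR1 probe sets gave the same groups at the top and the same order below them. From CT upward, Ssc.6068.1.A1_at had means of 10.67 ± 0.23 (SD, n = 4) in CT, 10.90 ± 0.15 in CT-GE-RES, 11.02 ± 0.28 in AD-RES, 11.29 ± 0.51 in AD, 11.36 ± 0.30 in AD-GE-RES and 11.40 ± 0.20 in AD-GE. Ssc.23526.2.S1_at had 9.97 ± 0.25 in CT, 10.30 ± 0.20 in CT-GE-RES, 10.40 ± 0.10 in AD-RES, 10.73 ± 0.31 in AD-GE-RES, 10.76 ± 0.46 in AD and 10.85 ± 0.17 in AD-GE. In both, AD-GE rather than AD had the highest mean, by 0.11 and 0.09, which is less than the SD of either group. Across the 24 animals the 3 probe sets correlated with each other at a Pearson r of 0.889 to 0.959. They measure 1 gene and are not independent of each other.

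**Figure D1:**
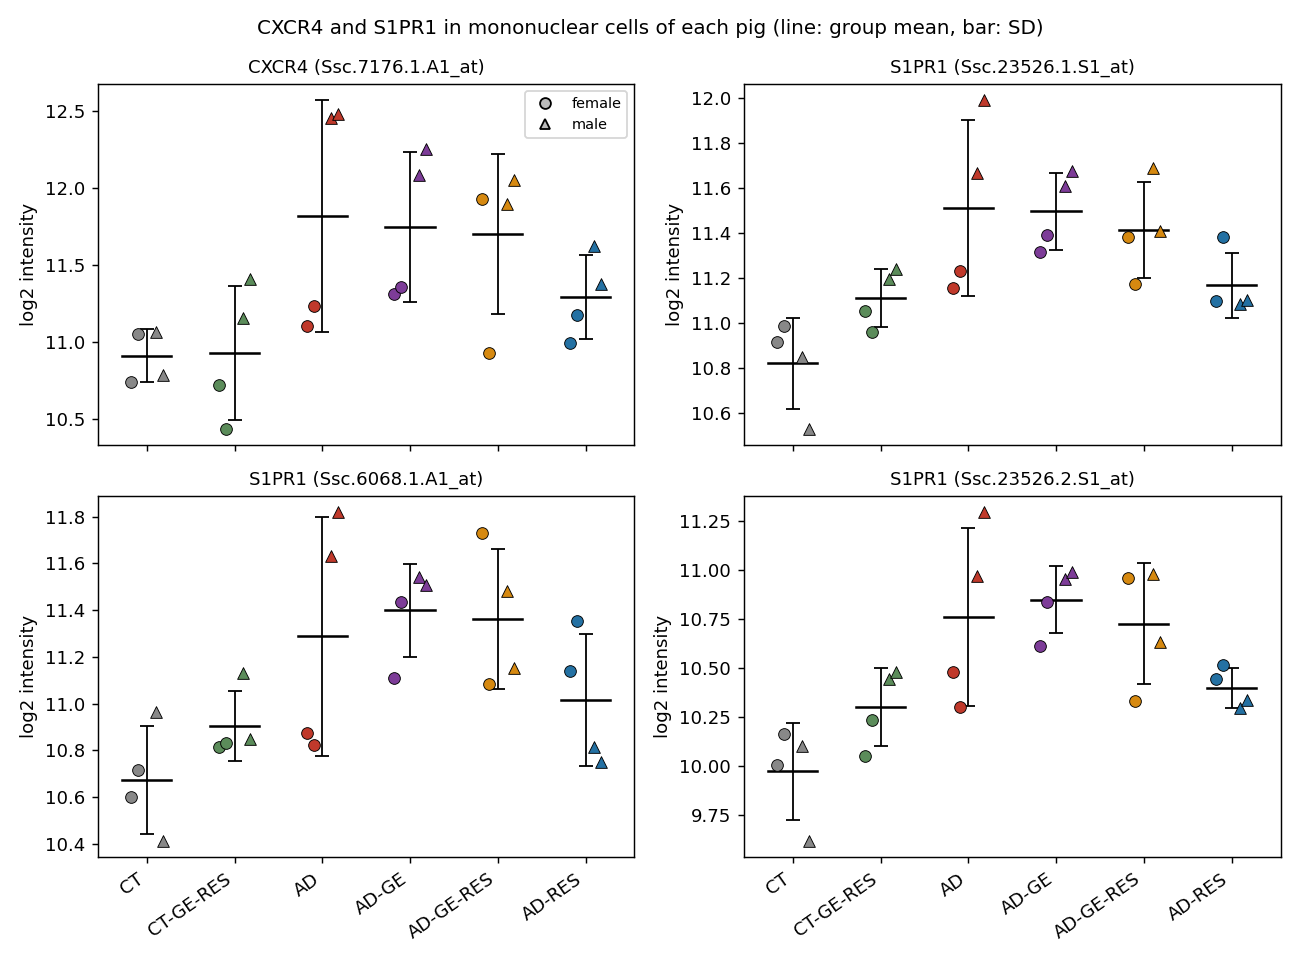
Log2 intensity (vertical axes) of CXCR4 and of the 3 S1PR1 probe sets in each pig by diet group (horizontal axes), with circles for females, triangles for males, lines for group means and bars for SD (n = 4). CT and CT-GE-RES are the lowest groups in every panel, and the CXCR4 males of AD and AD-GE are the 4 highest animals, from 12.08 to 12.48.

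AD against CT is the comparison in which the genes were found, and its size is given as a description. CXCR4 was 0.91 (SE 0.21) higher in AD, a 1.88-fold difference, and S1PR1 was 0.69 (SE 0.15), 0.62 (SE 0.20) and 0.79 (SE 0.18) higher by its 3 probe sets in the order given above. In males the difference was 1.54 (SE 0.24) for CXCR4 and 1.14 (SE 0.15) for S1PR1. In females it was 0.27 (SE 0.24) and 0.24 (SE 0.15). Of all 17999 probe sets tested, 0% passed a limma adjusted p of 0.05 in AD against CT and 6.38% had an unadjusted p below 0.05. In males alone 1.34% passed, from 2 animals against 2.

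Genes of other cell types differed in the same males. Of 9 platelet genes 8 were lower in AD males than in CT males, with a median difference of −2.26 on the log2 scale and 2 past the adjusted limma test. Of 5 erythroid genes 4 were lower (median −1.71, 1 past the test), and 6 of 8 neutrophil genes were lower (median −0.84, 0 past it). T cell genes went the other way, with 10 of 11 higher, a median of 0.52 and 1 past the test. Over all probe sets the median in males was −0.00 and 49.5% were higher. In females the platelet genes had the opposite sign, 8 of 9 being above CT by a median of 0.57, with 0 past the test. The male CT animal 4 had the highest 3'/5' ratio of its group (4.39) and list means, relative to all arrays, of −1.17 for T cell, 1.91 for neutrophil and 1.77 for erythroid genes. Without it AD minus CT was 0.87 for CXCR4 and 0.59 for S1PR1. The part of these cells and of RNA quality in the difference was not tested.

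The supplemented groups share the AD or CT arrays with that comparison, so their distances from AD and CT are also given without a test. Grape extract on the atherogenic diet left both genes close to AD, with differences of −0.07 (SE 0.21) for CXCR4 and −0.01 (SE 0.15) for S1PR1. The means of AD-GE-RES were also close, at −0.12 (SE 0.21) and −0.10 (SE 0.15). The group given resveratrol without extract had the lowest means among them, at −0.53 (SE 0.21) and −0.34 (SE 0.15) against AD. These distances rested in part on the AD males. For CXCR4 AD-RES minus AD was −0.31 without AD animal 3 and −0.31 without AD animal 4, each left out alone. For S1PR1 it was −0.18 without AD animal 4 and −0.29 without AD animal 3. The small CXCR4 distances of the other supplements from AD changed sign, to 0.14 and 0.15 for AD-GE and to 0.10 for AD-GE-RES, without AD animal 3 or 4. In CXCR4 the AD-RES females lay near the AD females, and both AD-RES males lay below both AD males. On chow the enriched extract went with 0.02 (SE 0.21) for CXCR4 and 0.29 (SE 0.15) for S1PR1.

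AD-GE-RES against CT-GE-RES sets the atherogenic diet against chow with the enriched extract on both sides, in 8 animals that took no part in the choice of the genes. CXCR4 was 0.77 (SE 0.21) higher on the atherogenic diet, with a 95% interval of 0.33 to 1.21 and a fold difference of 1.71. Its limma p ranked 11 of 17999 before adjustment (0.00143) and was 1.00 after it. An exact two-sided permutation test of the 4 against 4 animals gave p = 0.0857, where 0.0286 is the smallest p it can give. This test, and the other exact tests of 4 against 4 animals below, took no account of sex, whereas the limma model had a sex term. Of the AD-GE-RES animals 3 lay above all of CT-GE-RES, and animal 2, a female at 10.93, lay inside its range of 10.44 to 11.41. In this comparison 0% of probe sets passed the adjusted limma test and 4.5% had an unadjusted p below 0.05.

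S1PR1 was higher in AD-GE-RES than in CT-GE-RES by 0.30 (SE 0.15, 95% interval −0.01 to 0.61). Its other probe sets gave 0.46 (SE 0.20, interval 0.03 to 0.88) and 0.42 (SE 0.18, interval 0.06 to 0.79). All 3 had a limma adjusted p of 1.00, and the exact permutation p-values were 0.0857, 0.0571 and 0.0857. Of the AD-GE-RES animals 3 were again above every CT-GE-RES animal in each probe set, and animal 2 was again the exception. By sex, the CXCR4 difference was 0.85 (SE 0.24) in females and 0.69 (SE 0.24) in males, and for S1PR1 it was 0.27 (SE 0.15) and 0.33 (SE 0.15).

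The sexes were then compared in this response. The male difference minus the female difference was −0.16 (SE 0.34) for CXCR4, with a 95% interval of −0.87 to 0.55 and a limma adjusted p of 0.929. For S1PR1 it was 0.06 (SE 0.21, interval −0.40 to 0.51), with a limma adjusted p of 0.963. Each sex had 2 animals a group, and the intervals span 0 on both sides. For AD minus CT the same quantity was 1.27 (SE 0.34) and 0.90 (SE 0.21), described without a test because males were part of the choice.

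Marker genes were counted in the same 8 animals, and 0 of any list passed the adjusted limma test. Of 9 platelet genes 8 were lower in AD-GE-RES than in CT-GE-RES, with a median of −0.78. The only platelet gene at an unadjusted limma p below 0.05 was THBS1, the 1 that was higher, by 0.94 (SE 0.36). Of 11 T cell genes 9 were lower, with a median of −0.28 and 0 below that p. By sex, 11 of 11 T cell genes were lower in females and 8 of 11 were higher in males. Of 8 neutrophil genes 6 were higher (median 0.18), as were 5 of 5 erythroid genes (median 0.14). The sexes had opposite signs in both lists. The neutrophil median was 0.99 in females and −0.58 in males, and the erythroid median was −0.65 in females and 0.88 in males. Over all probe sets 49.8% were higher, with a median of −0.00. The platelet list mean, relative to all arrays, ran from −1.01 to 0.73 in AD-GE-RES and from −0.33 to 0.81 in CT-GE-RES. With that list mean as a covariate the differences were 0.73 (SE 0.22) for CXCR4 and 0.21 (SE 0.14) for S1PR1. With the T cell list mean as a covariate they were 0.83 (SE 0.21) and 0.37 (SE 0.14). No fit gave a limma adjusted p under the threshold.

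**Figure D2:**
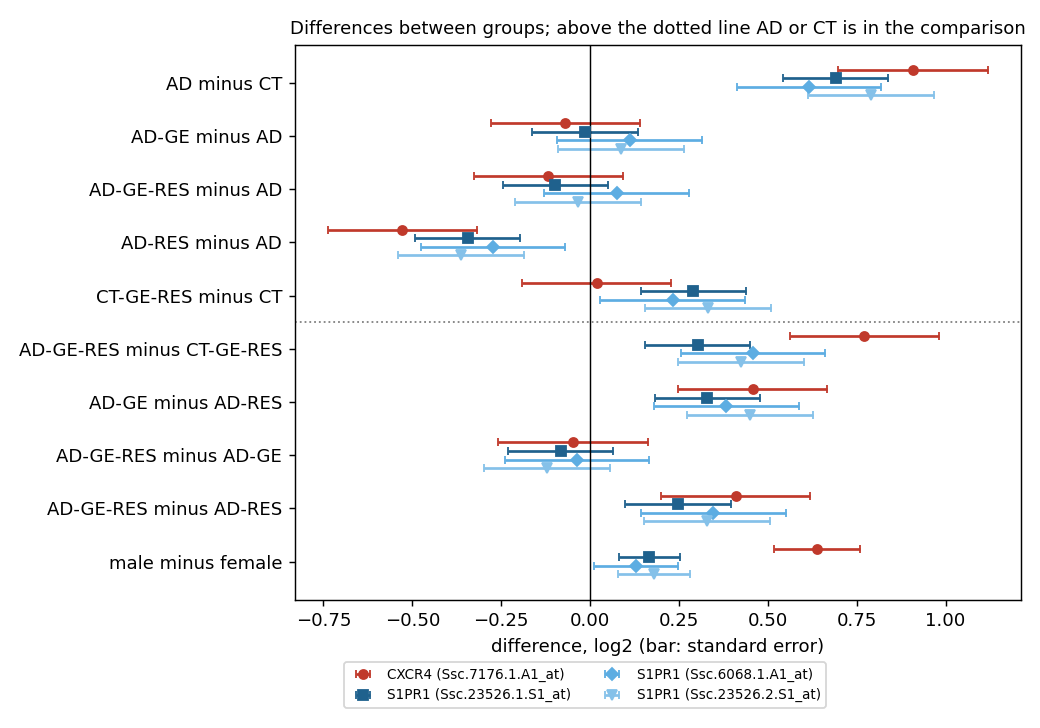
Differences in log2 intensity (horizontal axis, points, with bars for the standard error) between the groups named on the vertical axis, for CXCR4 and the 3 S1PR1 probe sets. Comparisons above the dotted line share AD or CT arrays with the choice of the genes, and those below it include male minus female over all groups; CXCR4 lies 0.77 above 0 in AD-GE-RES minus CT-GE-RES and 0.64 above 0 in male minus female.

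The 3 supplemented atherogenic groups were compared with each other. AD-RES was the lowest of them for both genes. The moderated F of limma was 2.88 for CXCR4 (adjusted p 0.795) and 2.68 for S1PR1 (adjusted p 0.803), and it was 2.17 and 3.48 for the other S1PR1 probe sets. In this test 0% of probe sets passed and 6.23% had an unadjusted p below 0.05. Without 1 animal the F of CXCR4 ran from 1.53 (AD-RES animal 4 left out) to 4.34 (AD-GE-RES animal 2). That of S1PR1 was 1.44 without AD-RES animal 3, 1.498 without AD-RES animal 4 and 4.37 without AD-RES animal 2. AD-GE exceeded AD-RES by 0.46 in CXCR4 (95% interval 0.02 to 0.89) and by 0.33 in S1PR1 (0.02 to 0.64), with limma adjusted p-values of 0.883 for each. AD-GE-RES exceeded AD-RES by 0.41 (−0.03 to 0.85) and 0.25 (−0.06 to 0.56). AD-GE-RES and AD-GE were −0.05 (−0.48 to 0.39) and −0.08 (−0.39 to 0.23) apart, and differences up to these bounds were not resolved.

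Single animals of AD-GE and AD-RES overlapped in CXCR4, in S1PR1 and in Ssc.6068.1.A1_at. In Ssc.23526.2.S1_at every AD-GE animal (10.61, 10.84, 10.95 and 10.99) was above every AD-RES animal (10.45, 10.52, 10.29 and 10.34). Of all probe sets 2.78% had every AD-GE animal above every AD-RES animal. The exact permutation p was 0.0286 for this probe set, the smallest that 4 against 4 can give, and 0.0571 for S1PR1 and 0.20 for CXCR4. Exact permutation tests, both of this kind and of the sexes as given below, were made for 24 combinations of probe set and comparison. Over all of these the adjusted exact permutation p was 0.171 for Ssc.23526.2.S1_at and for S1PR1.

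CXCR4 was higher in males than in females by 0.64 (SE 0.12) averaged over the 6 groups, a 1.56-fold difference. The limma adjusted p was 0.0187 with all groups, 2 of which were used in the choice of the genes, and 0.0566 in the 4 groups that were not. Over all groups 0.267% of probe sets were called, 35 of them lower in males and 13 higher (0.0722%), and CXCR4 ranked 32 by p. Both males were above both females in CT-GE-RES, AD, AD-GE and AD-RES, which 2.01% of probe sets showed in at least 4 of the 6 groups. The male minus female difference was 0.70, 1.30, 0.84 and 0.42 in those groups, 0.55 in AD-GE-RES and 0.03 in CT, where the sexes overlapped.

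In the 16 animals outside AD and CT the CXCR4 difference was 0.63 (SE 0.12), with that limma adjusted p above the threshold. An exact permutation of the sexes within these 4 groups gave p = 0.00309, or 0.037 adjusted over the 24 exact tests, and within all 6 groups p = 3.43e-04. S1PR1 did not pass in either set of animals. Its difference was 0.17 (SE 0.09, limma adjusted p 0.522) over 24 animals and 0.16 over 16 (exact permutation p = 0.0633). The other S1PR1 probe sets gave 0.13 (SE 0.12) and 0.18 (SE 0.10) over 24 animals. Over 16 animals Ssc.6068.1.A1_at changed sign to −0.03 (exact permutation p = 0.773), and Ssc.23526.2.S1_at gave 0.14 (exact permutation p = 0.184). A test of whether the sexes differ more in CXCR4 than in S1PR1 was not made.

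**Figure D3:**
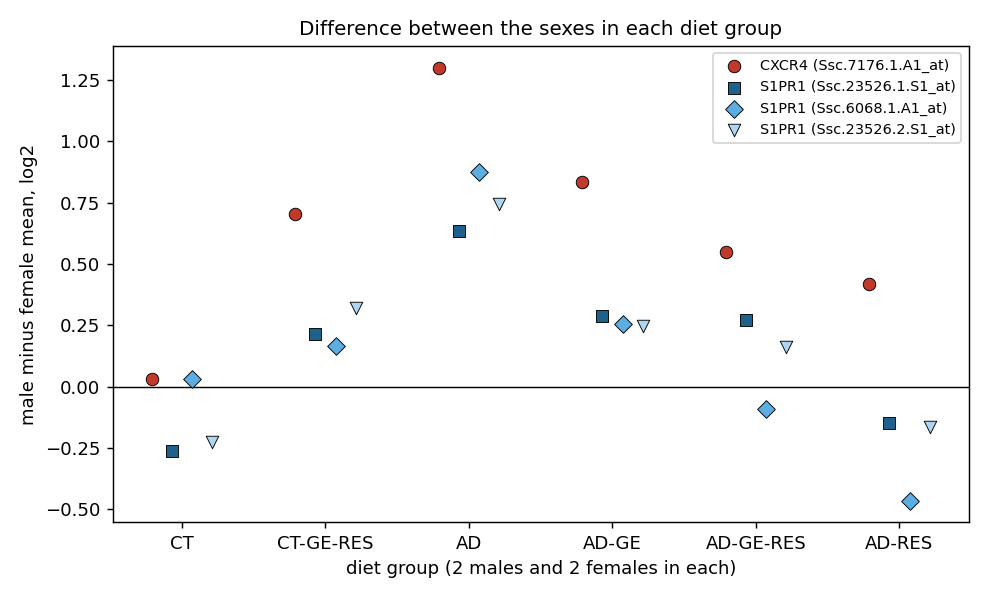
Male minus female difference of mean log2 intensity (vertical axis) in each diet group (horizontal axis, 2 males and 2 females in each) for CXCR4 and the 3 S1PR1 probe sets. CXCR4 lies above 0 in all 6 groups, from 0.03 in CT to 1.30 in AD, while S1PR1 probe sets lie on both sides of 0 in CT and all below it in AD-RES.

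The 3 measured B cell genes were each lower in males without passing the adjusted test, where 45.9% of all probe sets were higher in males. CD79B differed by −0.69 (SE 0.15), SPIB by −0.71 (SE 0.20) and BLNK by −0.26 (SE 0.12), with limma adjusted p-values of 0.067, 0.192 and 0.487. CD79B is part of the B cell receptor complex, SPIB a transcription factor and BLNK an adaptor of B cell receptor signalling. The mean of these genes, relative to all arrays, ran from −0.02 to 0.57 in CT and from −0.19 to 0.33 in CT-GE-RES. On atherogenic diets it ran from −0.78 to 0.43 in AD-RES, −0.56 to 0.87 in AD-GE-RES, −0.57 to 0.41 in AD-GE and −0.70 to 0.51 in AD. It was lower in males in each of the 6 groups. With this mean in the fit, an alternative chosen after seeing the data, the male minus female difference in CXCR4 was 0.38 (SE 0.14) with a limma adjusted p of 0.751. In AD-GE-RES the female with CXCR4 at 10.93 had the highest B cell mean of all animals, and the female at 11.93 had −0.56.

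Across the 24 animals CXCR4 and the B cell mean correlated at a Pearson r of −0.675 and a Spearman rho of −0.745, with adjusted permutation p-values of 0.00592 and 0.00112 over 16 relations with marker lists and the 3'/5' ratio. All p-values over 24 animals, for either receptor, include AD and CT, the groups used in the choice of the genes. Without the 2 arrays farthest from the median r was −0.729. With diet group means removed it was −0.776 (adjusted permutation p = 3.2e-04). Over the 16 animals outside AD and CT it was −0.642, with an adjusted permutation p of 0.131 for r and 0.0427 for rho (−0.715). Sex was not removed in any of these relations, and on average CXCR4 was higher and the B cell mean lower in males. S1PR1 had −0.453 with this mean (adjusted permutation p = 0.104). With the platelet list S1PR1 had r −0.612 and rho −0.590 (adjusted permutation p 0.0132 and 0.0247), and r was −0.537 without the 2 farthest arrays. This relation did not pass with group means removed (r −0.501, adjusted permutation p = 0.0683) or over 16 animals (r −0.577, adjusted permutation p = 0.156). CXCR4 had r −0.405 with platelet genes (adjusted permutation p = 0.163). The T cell list gave r of 0.244 for CXCR4 and 0.458 for S1PR1 (adjusted permutation p 0.337 and 0.104). With group means removed S1PR1 and T cell genes had r 0.516 (adjusted permutation p = 0.0683) and rho 0.657 (adjusted permutation p = 0.00528), and over 16 animals r was 0.190 (adjusted permutation p = 0.781). Whether these relations differ between the receptors was not tested. The part of these cells in the members' levels was not tested.

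**Figure D4:**
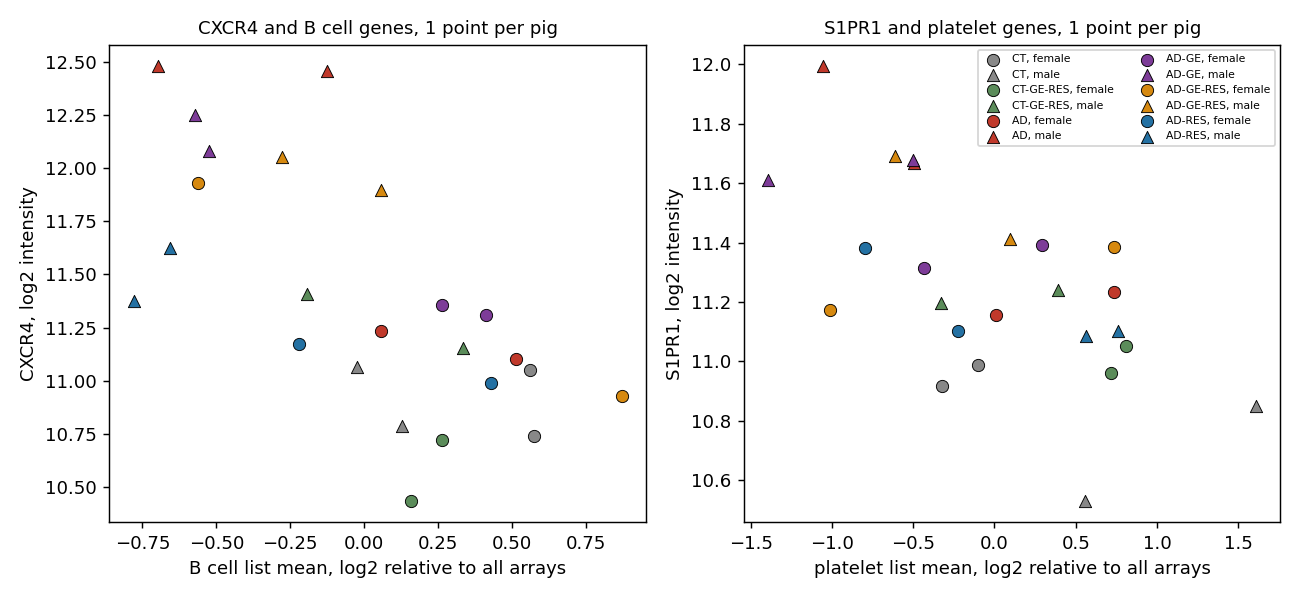
CXCR4 against the B cell list mean (left) and S1PR1 against the platelet list mean (right), in log2 units, with 1 point per pig, colours for diet groups and symbols for sex. CXCR4 is lower where B cell genes are higher (r −0.675), and S1PR1 is lower where platelet genes are higher (r −0.612).

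The receptors varied together from pig to pig. Over 24 animals Pearson r was 0.852 and Spearman rho 0.852, each with a permutation p of 1e-05, the smallest that 100000 permutations can give, and r was 0.844 without the 2 animals with the most extreme S1PR1 values. Part of this follows from the choice of both genes in AD against CT. In the 16 animals of the other groups r was 0.817 (permutation p = 1.2e-04) and rho 0.771 (permutation p = 7.7e-04), and r was 0.765 without the 2 farthest. With diet group means removed r was 0.770. It was 0.811 in the 12 females and 0.927 in the 12 males, a division chosen after seeing the data. The other S1PR1 probe sets had r of 0.778 and 0.847 with CXCR4 over 24 animals and 0.617 and 0.806 over 16.

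**Figure D5:**
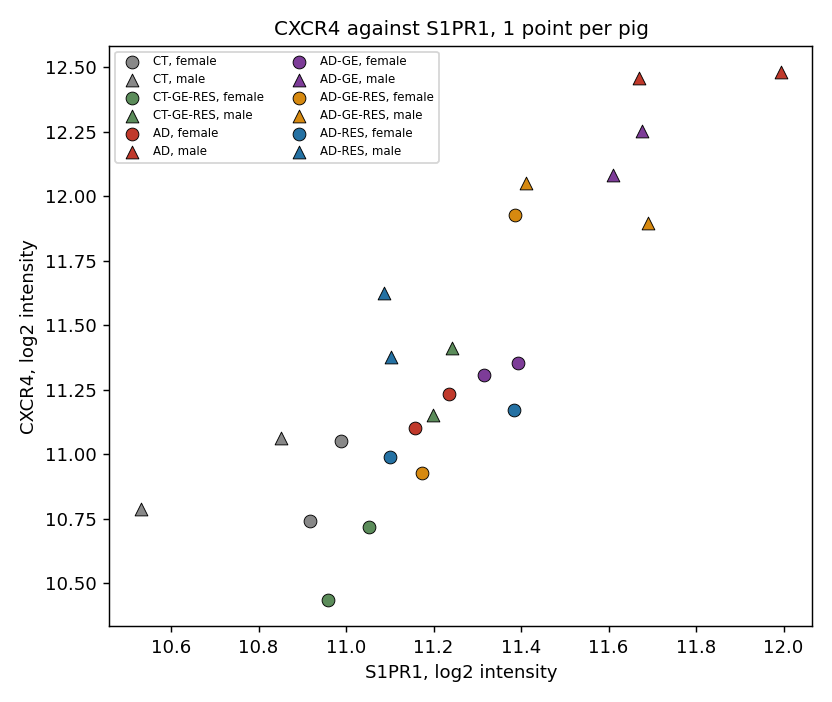
CXCR4 (vertical axis) against S1PR1 (horizontal axis), both in log2 intensity, with 1 point per pig, colours for diet groups and symbols for sex. The points rise together (r 0.852 over 24 pigs), with CT animals toward the lower left and AD and AD-GE males at the upper right.

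Other genes were ranked by the likeness of their pattern to each receptor, as Pearson r over the 24 animals among 6031 genes with 1 symbol. The genes most like CXCR4 were DNAJB4, a heat shock protein of the DnaJ family (r 0.851, and 0.832 over the 16 animals outside AD and CT), MOCS3 (0.845 and 0.733), PMAIP1, which encodes the proapoptotic protein NOXA (0.833 and 0.877), HILPDA, a lipid droplet protein induced by hypoxia (0.833 and 0.747), and SOCS1, an inhibitor of cytokine signalling (0.83 and 0.796). Those most like S1PR1 were RAE1 (0.851 and 0.744), the antiproliferative gene BTG1 (0.846 and 0.780), RABGGTB (0.835 and 0.883), HILPDA (0.817 and 0.641) and ANKRA2 (0.817 and 0.704). The median r of all genes was −0.05 with CXCR4 and −0.04 with S1PR1. Each receptor ranked 1 for the other when added to these genes over 24 animals. Over the 16 animals S1PR1 ranked 9 for CXCR4 and CXCR4 ranked 4 for S1PR1.

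The signalling genes around CXCR4 were divided in direction. Of 21 listed genes of CXCL12 and CXCR4 signalling 13 were measured, and in AD-GE-RES against CT-GE-RES 7 were higher and 6 lower, with a median difference of 0.02 and 0 past the adjusted limma test. Over all probe sets the median was −0.00 and 49.8% were higher. The ligand CXCL12 was itself near the filter in every group, from 3.50 ± 0.25 (SD, n = 4) in AD-GE-RES to 3.80 ± 0.11 in AD-RES. The smallest p-values belonged to RGS2 and RGS18, regulators that speed the turnover of G protein signals, at 0.35 (SE 0.18) and −0.73 (SE 0.42), to GRK5, a kinase that desensitises receptors, at 0.15 (SE 0.16), and to GNB2, a G protein beta subunit, at −0.15 (SE 0.15). RGS2 had its highest group mean in AD, at 10.48 ± 0.13 (SD, n = 4), and its lowest in CT-GE-RES, at 9.93 ± 0.38. No other receptor of CXCL12 was analysed here.

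Of 19 listed genes of the sphingosine 1-phosphate system 6 were measured, 3 higher and 3 lower, with a median of 0.00 and 0 past the test. KLF2, a transcription factor that drives S1PR1 transcription in T cells, was 0.22 (SE 0.14) higher in AD-GE-RES, at 5.74 ± 0.15 against 5.52 ± 0.17 (SD, n = 4). CD69, whose protein takes S1PR1 off the surface of activated lymphocytes, differed by 0.11 (SE 0.63). APOM, the carrier of the lipid in plasma, and ASAH1, an acid ceramidase that supplies its precursor sphingosine, differed by −0.08 (SE 0.13) and −0.30 (SE 0.55). Of the receptors for sphingosine 1-phosphate, S1PR1 alone was analysed here.

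Among 28 other homing receptors, selectins and integrins 13 were measured. In AD-GE-RES against CT-GE-RES 4 were higher and 9 lower, with a median of −0.03 and 0 past the adjusted limma test. The 4 smallest p-values belonged to genes that were lower in AD-GE-RES without passing the test. They were CXCR6, a receptor of tissue-homing T and NKT cells, at −0.47 (SE 0.16), CCR9, which guides lymphocytes to the small intestine, at −0.79 (SE 0.31), CCRL2, a binder of chemerin, at −0.57 (SE 0.30), and CCR3, the eotaxin receptor, at −0.57 (SE 0.35). CXCR6 was dim against a filter of 3.57. Its group means ran from 3.91 ± 0.14 (SD, n = 4) in AD-GE to 4.65 ± 0.32 in CT-GE-RES. In AD minus CT, CXCR6 differed by 0.30 (SE 0.16), the opposite sign, and in CT-GE-RES minus CT by 0.54 (SE 0.16). CCR9, CCRL2 and CCR3 were negative in AD minus CT too. CCR7, the receptor for entry into lymph nodes, differed by −0.03 (SE 0.19). Between the sexes 0 genes of these 3 lists passed the adjusted test.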

How the data were processed

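RNA was measured on Affymetrix porcine arrays, 1 pig to an array, and the authors deposited linear intensities (array medians 38.6 to 41.2). RMA and GCOS stand in the submitters' processing notes; their order and versions were not stated. The intensities were converted to log2 before any test. After removal of control probe sets and of the dimmest 25% by mean, 17999 of 23999 probe sets were tested. Symbols came from the platform's annotation, and the probe set with the highest mean stood for a gene.

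The main model (limma 3.58.1, R 4.3.3) had a mean for each of 6 diets plus a sex term, over 24 arrays. Contrasts within 1 sex and the sex difference in a diet response came from a model with 12 diet and sex means. Tests were two-sided, with Benjamini-Hochberg adjustment over all probe sets and a threshold of 0.05. The p-values reflect variation among animals, whose number limits how precise a difference can be. Relations across animals used 100000 permutations. The model was tested on simulated data.

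The members and gene lists were chosen with earlier results of these data known. Named genes were the 5 most like each receptor and, in each of 3 lists, the 4 with the smallest p in AD-GE-RES against CT-GE-RES. CCR7 was named after its value was seen. Alternatives concerned the sex term, filter, normalization, array weights, arrays used, covariates, probe sets and each animal left out. Genome positions and sequences were not used here.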

Additional observations from a re-analysis of the deposited data

Results flagged for a closer look

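In 3 of 24 sets of 4 animals, 1 per probe set and diet group, a single animal stood far from the other 3 by Dixon's criterion at the 95% level, which chance alone passes in about 5% of sets. CXCR4 in AD-GE-RES had animal 2, a female, at 10.93 with the nearest other animal at 11.90. S1PR1 (Ssc.23526.1.S1_at) in AD-RES had animal 2, a female, at 11.38 with the nearest at 11.10. S1PR1 by Ssc.6068.1.A1_at in CT-GE-RES had animal 3, a male, at 11.13 with the nearest at 10.85.

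The direction of the sex difference in S1PR1 was not the same in all diet groups. By Ssc.23526.1.S1_at both males were below both females in CT, by −0.26, and above them in CT-GE-RES, AD, AD-GE and AD-GE-RES, by 0.21 to 0.64. By Ssc.6068.1.A1_at both males were below both females in AD-RES, by −0.46, and above them in CT-GE-RES, AD and AD-GE, by 0.17 to 0.88. By Ssc.23526.2.S1_at the males were below in AD-RES, by −0.17, and above in CT-GE-RES, AD and AD-GE, by 0.25 to 0.74. These differences between diet groups were not tested, and they rest on 2 animals of each sex.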

How the results depend on the processing

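The male minus female difference in CXCR4 lost its call over the 16 arrays without AD and CT (0.63, limma adjusted p 0.0566, fewer animals) and with the B cell list mean in the fit (0.38, adjusted p 0.751), the latter chosen after seeing the data, as was the platelet list mean. The other 8 alternatives kept the call, and the 24 fits without 1 animal gave 0.59 to 0.70 with adjusted p-values of 0.0022 to 0.0494. The sex difference in AD-GE-RES minus CT-GE-RES, not called in any fit, changed sign for S1PR1 with repeated quantile normalization (−0.0762), with the array's 3'/5' ratio as a covariate (−0.00577) and by the probe sets Ssc.6068.1.A1_at (−0.26) and Ssc.23526.2.S1_at (−0.16); the cause was not tested. Without 1 animal it ran from −0.66 to 0.35 for CXCR4, above 0 without AD-GE-RES animal 1, and from −0.0820 to 0.20 for S1PR1, below 0 without AD-GE-RES animal 2 or 3.

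AD-GE-RES minus CT-GE-RES stayed positive, at 0.71 to 0.83 for CXCR4 and 0.21 to 0.46 for S1PR1 over 11 and 13 alternatives, and at 0.58 to 0.93 and 0.23 to 0.36 without 1 animal, with no adjusted p under the threshold. In the comparison of the supplemented atherogenic groups neither gene was called, with limma adjusted p-values of 0.137 to 0.882 and 0.124 to 0.862. Array weights raised F to 6.89 for CXCR4 and 7.85 for S1PR1. They also raised the number of all 17999 probe sets with an unadjusted limma p below 0.05, from 1122 to 3246. The number past the adjusted test went from 0 to 56. Without 1 animal AD-RES minus AD ran from −0.77 to −0.31 and −0.46 to −0.18, AD-GE minus AD from −0.31 to 0.15 and −0.13 to 0.15, and AD-GE-RES minus AD from −0.36 to 0.14 and −0.22 to 0.06, each for CXCR4 and then S1PR1. The correlation of CXCR4 with S1PR1 was 0.767 to 0.927 over 7 alternatives and 0.820 to 0.869 without 1 animal. The relation of S1PR1 with platelet genes lost its call with group means removed and over the 16 arrays, and that of CXCR4 with B cell genes over the 16 arrays. Over the 16 arrays the weak correlation with CXCR4 changed sign to 0.243 for neutrophil and 0.191 for erythroid genes, and that of S1PR1 with NK and cytotoxic cell genes to −0.016. With diet group means removed S1PR1 and monocyte genes had 0.133. No paired analysis was possible because the replicate numbers were given in accession order and pair no animals across groups.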

Other observations

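Between the sexes, a further set of genes around CXCR4 was looked at after their values were seen. RGS1, a regulator of G protein signals known to dampen chemokine responses of lymphocytes, was 1.42 (SE 0.37) higher in males, with a limma adjusted p of 0.146. RGS2 was 0.31 (SE 0.10) higher and RGS14 was lower, at −0.27 (SE 0.09), with adjusted p-values of 0.296 and 0.271. CD69 was 0.80 (SE 0.36) higher in males, with an adjusted p of 0.461. None passed the threshold. RGS1 had its lowest group mean in CT at 6.17 ± 1.54 (SD, n = 4) and its highest in AD-GE at 8.33 ± 1.07, with a wide spread in every group.

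The genes with the most opposite patterns over the 24 animals were also listed, by a rule added after the data were seen. Against CXCR4 they were PREB (r −0.845, and −0.816 over the 16 animals outside AD and CT), NFS1 (−0.835 and −0.830) and SWSAP1 (−0.833 and −0.865). Against S1PR1 they were SARNP (−0.815 and −0.836), SLC9A3R1 (−0.801 and −0.780) and USP28 (−0.793 and −0.677).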
